A study of Mus musculus with 5 samples.

Results

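Ago HITS-CLIP, which crosslinks RNA to Argonaute proteins with UV light and sequences the bound fragments, was examined for the mRNAs of 9 genes whose own products make and use miRNAs: Ago1, Ago2, Dicer1, Drosha, Dgcr8, Xpo5, Tnrc6a, Tnrc6b and Tnrc6c. The genes were chosen by name, and their entries were those whose gene field held the symbol. All 9 of them, of 22714 genes listed in the 5 tables, had entries. Drosha had none at e15.5, so 8 genes were listed at that stage.

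The samples were livers of C57BL/6 mice from embryos (stages e12.5, e15.5 and e18.5, in days), from pups at postnatal day 7 (P7) and from adults of 6 to 8 weeks, with 1 library per stage. Where 5 values follow each other below, they are in that order. All livers were crosslinked 3 times at 254 nm with 0.2 J/cm2. Antibodies to Ago2 were used at every stage and an antibody to Ago1 was added at P7 and in adult liver, so the added antibody and the postnatal stages cannot be told apart. The labels give a single sample per stage, so no test between stages was made, and the intervals below cover counting error only. The embryonic tables each hold 2 lists of entries, and no source used here says whether these are separate biological replicates. The study names such replicates and a further e18.5 library, which has no labelled sample of its own here.

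Primary miRNA transcripts are cut in the nucleus by Drosha with its RNA-binding partner Dgcr8, and the hairpins leave the nucleus through exportin 5, the product of Xpo5. Dicer1 cuts the hairpin to a duplex, and an Argonaute such as Ago1 or Ago2 keeps one strand and uses its seed, bases 2 to 8, to find target mRNAs. The Tnrc6 proteins (GW182) bind Argonaute and recruit the deadenylases that shorten the target's poly(A) tail. The mRNAs of this machinery can carry miRNA sites themselves.

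In each table an entry is a seed match of a miRNA inside a cluster of overlapping Ago-bound reads. The tables held between 76948 clusters at e18.5 and 208193 at e12.5, with between 13008703 and 44867326 summed cluster reads. Clusters on annotated miRNA hairpins took between 42.6% and 76.7% of those reads and clusters on mRNA between 13.5% and 30.0%. Adult liver had the highest hairpin share and the lowest mRNA share. A shift of this kind moves all genes together, and the median of 8565 genes was 0.91 lower on the log2 scale in adult liver than at e12.5, as reads scaled to all cluster reads. The 10 hepatocyte markers had mRNA clusters at every stage, and their summed reads for every 1000000 mRNA cluster reads were 4364 at e12.5 and 84016 in adult liver. Those of the 8 erythroid markers were 145364 and 6025, with 4 of the 8 at 0 in adult liver, 1 of which (Hbb-b1) was at 0 at every stage. The fetal hepatocyte markers had 6185 and 0, and the 3 stellate markers 90.4 and 240.5. The stellate rise was that of Lrat, from 1.34 to 173.4, while Col1a1 went from 72.5 to 60.3 and Des from 16.6 to 6.86. The 4 markers of other blood cells had 29.0 and 319.9 such reads, and the 3 endothelial markers 46.9 and 1043. In whole liver, fewer cells of a type, less RNA per cell and less Ago binding per RNA cannot be told apart. The levels below are those of Ago-bound reads, and mRNA amounts were not measured. The part of cell composition in the values below was not tested.

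The sites that recurred across stages carry the sequence side of the results. Shown first are the miRNAs whose sites lay in the same place in several libraries, as RNA from RefSeq on GRCm38, 5′ to 3′, with the seed in capitals.
miR-30a-5p: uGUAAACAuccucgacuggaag
miR-30c-5p: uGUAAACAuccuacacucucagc
miR-144-3p: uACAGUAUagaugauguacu
miR-101b-3p: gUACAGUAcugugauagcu
miR-23a-3p: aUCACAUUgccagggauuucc
miR-106b-3p: cCGCACUGuggguacuugcugc
The miR-30 members share a seed. That of miR-101b-3p is the seed of miR-144-3p moved by a base, so the pair can be listed at the same place.

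Their sites follow, as DNA of the gene's strand in GRCm38 (mm10), with the bases of the seed match in capitals. An 8mer pairs with bases 2 to 8 and has an A opposite base 1, a 7mer-m8 lacks that A, and a 7mer-A1 has the A but not the pair at base 8.
Ago2, miR-30, 8mer, chr15:73125204-73125226: tacccccacctcccgTGTTTACA
Tnrc6a, miR-30, 8mer, chr7:123193658-123193680: cacggtgaaccttctTGTTTACA
Tnrc6b, miR-30, 8mer, chr15:80932170-80932192: tgctagagcccctctTGTTTACA
Tnrc6c, miR-30, 8mer, chr11:117762174-117762196: gtttgggctcccaccTGTTTACA
Dicer1, miR-144-3p, 7mer-A1, chr12:104703085-104703107: ggctgagagtgataatTACTGTA
Tnrc6a, miR-23, 8mer, chr7:123193113-123193135: gcaggccaatattatAATGTGAA
Tnrc6b, miR-106b-3p, 7mer-m8, chr15:80933046-80933068: ggctctaaactgtggCAGTGCGg
The Tnrc6b and Tnrc6c sites of miR-30 were chosen after their values were seen, to show the shared match. Of the others, the Ago2 site lies in coding exon 8, the Dicer1 site in coding exon 21, and those of Tnrc6a and Tnrc6b in the 3′UTR.

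Over the 5 tables the 9 genes had 1157 clusters in the 3′UTR, coding sequence (CDS) or 5′UTR, counted per table. The e12.5 table held 413 of them (exact Poisson 95% interval 374 to 455) and 122 (101 to 146) came from adult liver, with 204, 174 and 244 in the tables between. Depth differed between the tables, and per 10000 mRNA clusters the numbers were 43.4, 45.2, 41.0, 30.4 and 22.8. The 3 embryonic values were close together and the adult value was the lowest.

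The share in the 3′UTR was 48.9% (Wilson 95% interval 46.0 to 51.8) for the 9 genes and 37.7% (37.6 to 37.9) for all genes. It was 49.2% and 41.5% at e12.5, and 43.4% (35.0 to 52.3) and 29.7% in adult liver. The genes themselves were spread over the whole range. Ago1, with 33 of 35 clusters (94.3%), and Ago2, with 169 of 221 (76.5%), lay mostly in the 3′UTR. A cluster can carry more than 1 label, and 5 of the Ago1 clusters were labelled 3′UTR and CDS and lie in coding exons of the transcript used here. Tnrc6b had 58.0% there, Tnrc6a 84 of 210 clusters, Dicer1 29.6% and Tnrc6c 25.9%. The genes of nuclear processing and export had most of their clusters in the CDS: Dgcr8 had 2 of 27 clusters in the 3′UTR, Drosha 1 of 19 and Xpo5 0 of 34. A count of 0 allows a share of up to 8.82% for Xpo5, as 3 counts of 34, and the Wilson 95% interval reaches 10.2%.

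**Figure D1:**
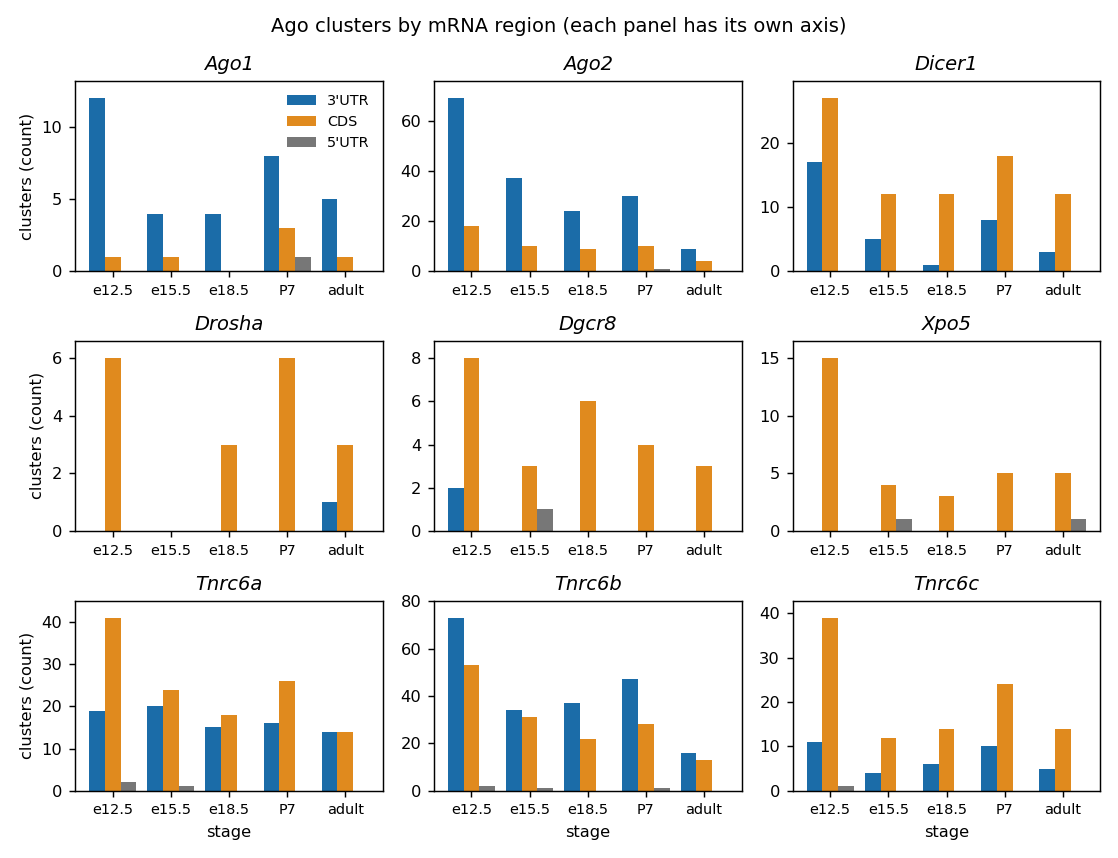
Number of Ago clusters (y axis, count, own scale in each panel) in the 3′UTR, CDS and 5′UTR of each gene at the 5 stages (x axis, 1 library each). Ago1 and Ago2 bars are mostly 3′UTR, and those of Drosha, Dgcr8 and Xpo5 are mostly CDS.

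The length of the 3′UTR differs between these genes, from 172 bases in Drosha to 11612 in Tnrc6b. Per kilobase, summed over the tables, Tnrc6a had 35.8 3′UTR clusters, Tnrc6b 17.8, Ago2 15.3, Tnrc6c 13.9, Dicer1 8.82, Ago1 7.34, Drosha 5.81 from its single cluster, Dgcr8 1.27 and Xpo5 0. The median of 10249 genes was 4.91 and the 95th percentile 30.8. In the CDS, Tnrc6b had 27.1 clusters per kilobase, Tnrc6a 21.6, Ago2 19.8, Tnrc6c 18.1, Dicer1 14.2, Dgcr8 10.3, Xpo5 8.86, Drosha 4.37 and Ago1 2.33, with a median of 8.99 over all genes. Ago1 and Drosha were below that median, at percentiles 8.69 and 22.2, and Xpo5 was close to it, at percentile 49.4. Of the 24 CDS clusters of Dgcr8, 10 lay on the miRNA hairpin Mir1306 inside the gene, and without them it had 6.04 per kilobase.

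Levels were compared between stages as reads in the mRNA clusters of a gene for every 1000000 cluster reads of the table, written RPM. All 9 genes were at least 2-fold lower in adult liver than at e12.5, and so were 48.3% of the tested genes. The number was 5 when reads were scaled to mRNA clusters (33.5% of genes) and 3 when clusters on miRNA genes were left out (28.8% of genes). None of the 9 was 2-fold higher, against 21% of genes. Relative to the median gene, which removes the choice of scale, 5 of the 9 were at least 2-fold lower (31.3% of genes) and none was higher (32.5% of genes). When only the first embryonic lists were used, 2 of the 9 were lower (29.9% of genes) and 0 higher (30.8%). When only the second were used, 4 were lower (31.4% of genes) and Drosha was higher (31.9%). The median of the 9 was -1.96 on the log2 scale and -1.05 relative to the median gene.

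**Figure D2:**
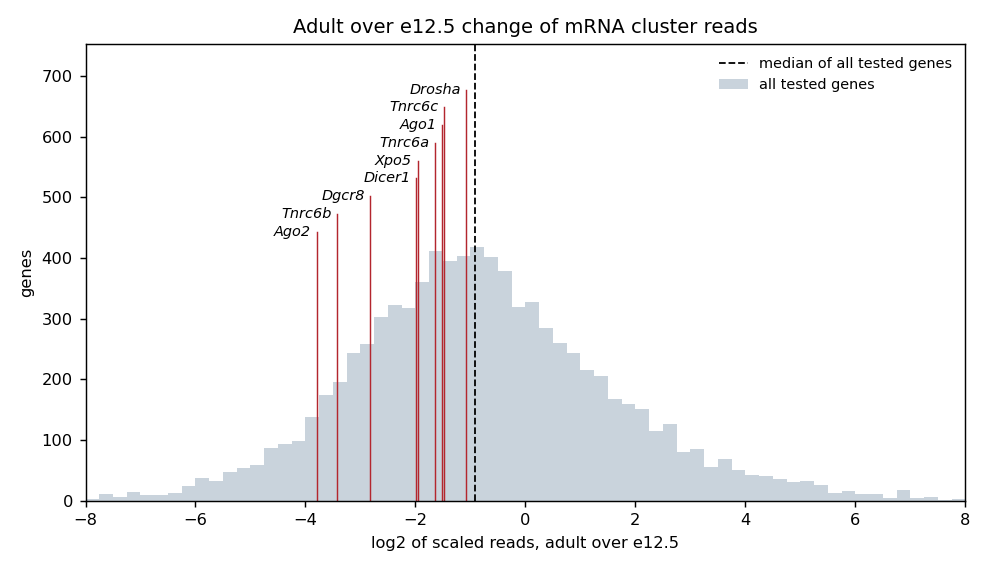
Number of genes (y axis) by log2 change of scaled reads from e12.5 to adult liver (x axis) for 8565 tested genes, with the 9 genes marked by red lines and the median of all tested genes by the dashed line at -0.91. All 9 lines lie left of the median, from Drosha at -1.07 to Ago2 at -3.80.

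Of the Argonautes, Ago2, the slicing Argonaute, lies at chr15:73095844-73184935 and had 159, 154, 127, 54.9 and 11.5 RPM. The embryonic values lay between 127 and 159, and each postnatal library was lower than the one before. The adult level was 13.9-fold lower than at e12.5 and 7.38-fold lower relative to the median gene, and 8.41% of genes had a lower ratio. Its 3′UTR clusters numbered 69, 37, 24, 30 and 9. Ago1 (chr4:126435012-126468583) had few reads at every stage, with 10.6, 7.69, 8.15, 12.55 and 3.70 RPM. It had 12 clusters at e12.5 and 4 to 10 later. Of their 32 positions 30 were seen in a single table, as were 71.6% of the positions of all genes, 1 was seen in 2 tables and 1 in 3.

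Ago2 also had 80 clusters in introns at e12.5, against 5, 6, 4 and 3 at the later stages. Of the 80, 71 lay in intron 1 (chr15:73146566-73184760), between 0.704 and 37.3 kb from the transcription start. The number ranked 40 among 11193 genes with intron clusters at e12.5, where the median gene had 2. Per 10000 intron clusters of the table it was 14.0, 3.23, 4.04, 1.47 and 1.63. Tnrc6b, the other gene with many, had 25, 6, 5, 5 and 11 intron clusters. The e12.5 table holds 2 lists of entries, and both contributed: 29 clusters from the first, with a median of 113 reads, and 58 from the second, with a median of 21, of which 7 were in both.

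**Figure D3:**
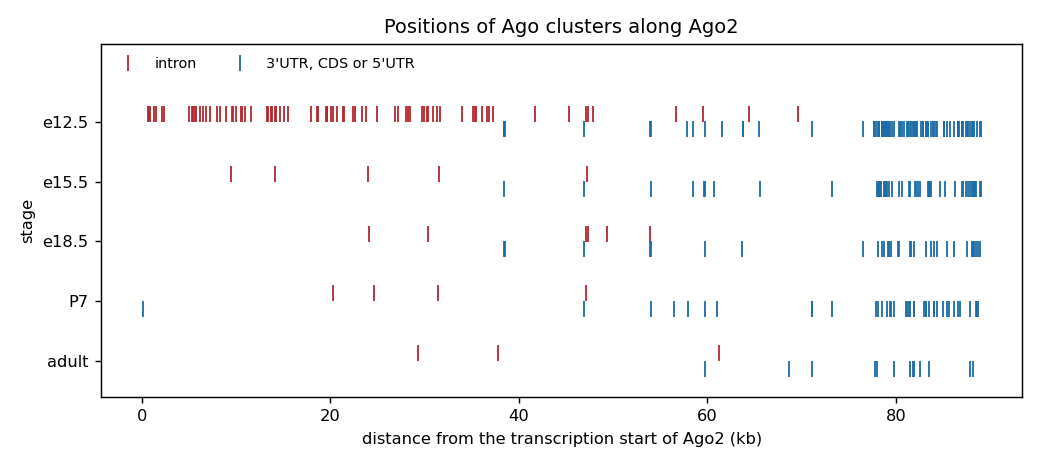
Positions of Ago clusters along Ago2 (x axis, distance from the transcription start in kb) at each stage (y axis), with intron clusters in red and mRNA clusters in blue. The red marks of e12.5 are dense within 37.3 kb of the start, and the other stages have between 3 and 6 red marks.

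Dicer1 (chr12:104687742-104751952) had 63.2, 90.2, 36.1, 32.9 and 15.9 RPM. The highest value was at e15.5, and the adult level was 3.97-fold lower than at e12.5. It was 2.11-fold lower relative to the median gene. Without clusters on miRNA genes the log2 change of Dicer1 was -0.91, and -1.08 relative to the median gene, which still passes 2-fold. With only the first embryonic lists the relative change of Dicer1 was -0.22, which does not reach 2-fold. Its highest position was the coding exon 21 site printed above, which was bound in all 5 libraries, with 998, 603, 252, 149 and 118 reads in its clusters. miR-144-3p, an erythroid miRNA, took 21.7% of miRNA reads in the e12.5 library and 1.54% in the adult one, where miR-101b-3p took 0.101% and 0.617%. miR-101a-3p was listed at the same 7mer-A1 in all 5 tables, and miR-101b-3p in 4, not at e12.5. The data do not tell which of the 3 was bound.

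Drosha (chr15:12824815-12935290) had 12.504 RPM at e12.5, no entry in the next library, and then 11.7, 23.6 and 5.95. Its P7 value came mostly from 1 cluster of 278 reads in coding exon 4. From e12.5 to adult liver it was 2.10-fold lower, and 1.12-fold lower relative to the median gene. The direction turned with only the second embryonic lists, to a log2 change of 0.31, and was 0.0100 without clusters on miRNA genes. Xpo5 (chr17:46202782-46243598) had 17.5, 7.57, 9.76, 4.97 and 4.50 RPM, with 15 clusters at e12.5 and 3 to 6 later. No position of Drosha or Xpo5 was seen in 4 or more tables.

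Dgcr8 (chr16:18253948-18289246) had 34.7, 33.8, 38.4, 11.4 and 4.90 RPM. Most of these reads lay on a miRNA hairpin: Mir1306 sits in coding exon 2 of Dgcr8 (chr16:18284239-18284317), and clusters on it held 83.2%, 91.8%, 67.9%, 72.9% and 92.6% of the reads. The arms of the hairpin are shown because the clusters lie on them.
miR-1306-3p: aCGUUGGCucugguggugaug
miR-1306-5p: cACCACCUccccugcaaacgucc
The clusters over the 3p arm had 1105, 449, 265, 60 and 50 reads, and the number listed for miR-1306-3p itself was 1119, 449, 266, 60 and 50. Over the 5p arm they had 189, 64, 74, 77 and 63, and miR-1306-5p was listed with 190, 66, 74, 77 and 63. Without the hairpin, Dgcr8 kept 261, 46, 160, 51 and 9 reads. Its log2 change from e12.5 to adult liver relative to the median gene was -1.91, -3.10 without clusters on miRNA genes, and 0.24 with only the first embryonic lists, where the direction turned.

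Tnrc6b (chr15:80711313-80941085) had 328, 325, 329.5, 114 and 30.5 RPM. Tnrc6a (chr7:123124181-123195296) had 160.5, 232, 165, 84.7 and 51.2. Tnrc6c (chr11:117654813-117763439) had 56.3, 53.3, 112, 70.1 and 20.3. The order therefore changed: Tnrc6b was highest up to P7 and Tnrc6a in adult liver. Relative to the median gene, the adult level of Tnrc6b was 5.73-fold lower than at e12.5, that of Tnrc6a 1.67-fold and that of Tnrc6c 1.48-fold. With only the first embryonic lists the relative log2 changes were -0.18 for Tnrc6a and 0.0059 for Tnrc6c, where the lower direction was lost.

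**Figure D4:**
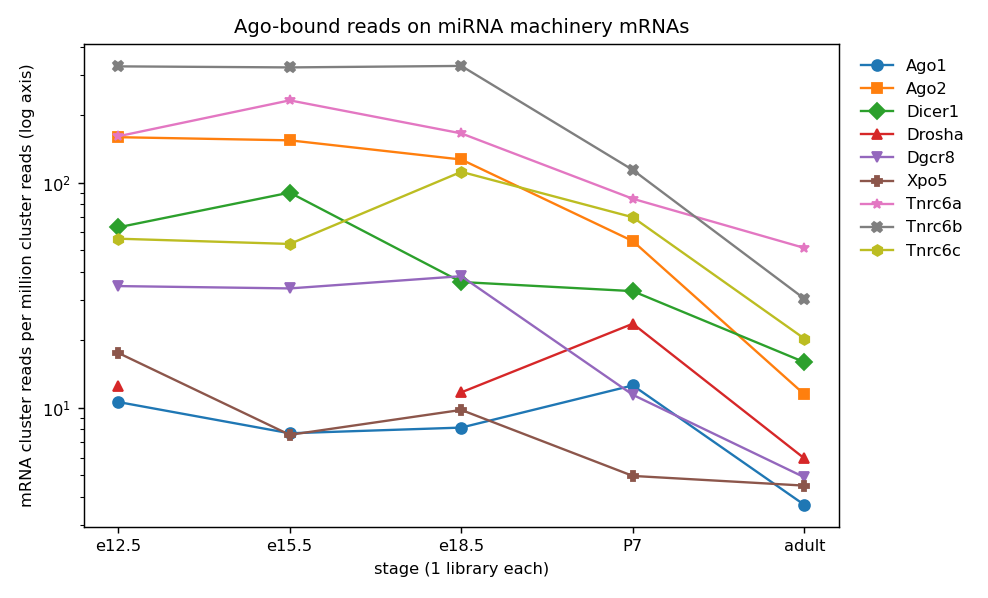
Reads in mRNA clusters for every 1000000 cluster reads (y axis, log scale) for each of the 9 genes at the 5 stages (x axis, 1 library each). All 9 genes have their lowest plotted value in adult liver, and Drosha has no point at e15.5.

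On this scale the adult value was the lowest listed for all 9 genes. Scaled to the reads of mRNA clusters instead, it was so for 6 of the 9, and Ago1, Xpo5 and Drosha were lower elsewhere, with Ago1 at 25.9 at e15.5 and 27.5 in adult liver. In adult against P7 liver, 7 of the 9 genes were at least 2-fold lower (43.3% of genes) and 0 higher (10.2% of genes). The counts relative to the median gene were 4 lower (23% of genes) and 0 higher (22.6% of genes). In P7 against e18.5 liver 3 were lower, Ago2, Tnrc6b and Dgcr8 (34.6% of genes), and Drosha was higher (20.9% of genes). Relative to the median gene, Tnrc6b and Dgcr8 were lower (24.6% of genes), Ago2 was not, at -0.76, and Drosha and Ago1 were higher (27.4% of genes), with Ago1 at 1.07. Of the 8 genes listed at e15.5, Xpo5 was 2-fold lower there than at e12.5 (18% of genes) and 0 were higher (24.8% of genes). In e18.5 against e15.5 liver Dicer1 was lower (29.1% of genes) and Tnrc6c higher (29.9% of genes).

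Joined over the tables, the mRNA clusters of the 9 genes fell at 678 positions, of which 50 (7.37%) were seen in 4 or 5 libraries and 23 in all 5. For all genes 5.02% of 209925 positions were seen in 4 or 5. Tnrc6b had 18 of the 50, Tnrc6a 15, Tnrc6c 7, Ago2 6, Dicer1 2 and Dgcr8 2, both of the latter on the hairpin. The highest Tnrc6b position, with the miR-106b-3p site, had 1430, 347, 648, 76 and 15 reads. The site itself was not listed in adult liver. The Tnrc6a position with the miR-23 site had 381, 302, 43, 162 and 405, and was thus not lowest in adult liver. An 8mer of miR-374b-5p adjoins the miR-23 site (chr7:123193122-123193128). Both sites were listed in all 5 libraries with the same reads, and the data do not tell which miRNA was bound.

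Sites of at least 7 matched bases for one of the 100 most abundant miRNAs of a library were then followed across stages. There were 39 pairs of a site and a miRNA family listed in 4 or more tables, 24 in the 3′UTR and 15 in the CDS. Tnrc6a had 16, Tnrc6b 10, Tnrc6c 6, Ago2 4 and Dicer1 3, and the other 4 genes had none. Several pairs overlap at one place, such as the Tnrc6a sites of miR-19 and of miR-148a-3p, and are not independent.

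The number of miRNAs with a site in an mRNA cluster was 461, 201, 202, 304 and 147 for Tnrc6b, 377, 202, 134, 198 and 38 for Ago2, and 53, 16, 11, 66 and 19 for Ago1. Most of these miRNAs were outside the 100 most abundant of the library. Of the 100 most abundant miRNAs, 74, 35, 43, 54 and 41 had a site in Tnrc6b, 73, 47, 35, 41 and 10 in Ago2, and 7, 3, 2, 10 and 3 in Ago1. The share of mRNA clusters with a site of such a miRNA was 48.7% for the 9 genes and 46.2% for all genes at e12.5, and 41.8% and 46.8% in adult liver.

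The next 4 recurring sites are shown because they were listed at every stage but the adult one, and were picked for that after their values were seen.
Tnrc6a, miR-93-5p, 7mer-m8, chr7:123193604-123193626: cccaggacgggccctGCACTTTg
Ago2, miR-17 family, 7mer-m8, chr15:73130936-73130958: caggcgttacacgatGCACTTTc
Tnrc6b, miR-15/16, 7mer-A1, chr15:80941060-80941082: ctaataaatgtgtttgGCTGCTA
Tnrc6c, miR-142a-3p, 7mer-m8, chr11:117758015-117758037: ggaaggtacccagaaACACTACt
The Tnrc6a site was listed with 898, 158, 175, 233 and 0 reads, and the Ago2 site, in coding exon 4, with 473, 70, 61, 10 and 0. The Tnrc6b site, near the end of the 3′UTR, had 440, 201, 219, 58 and 0 reads, and the Tnrc6c site, in coding exon 19, had 75, 203, 236, 23 and 0. An entry under 5 reads would not be listed. Other sites of the same families were listed in adult liver, such as a Tnrc6b site of the miR-17 family with 49, 0, 111, 28 and 56 reads and one of miR-15/16 with 11, 0, 0, 0 and 30, also chosen after their values were seen. Of miRNA reads, miR-142a-3p, a blood cell miRNA, took 32.2% in the e12.5 library and 4.34% in the adult one, and miR-16-5p took 3.49% and 14.0%.

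The miR-30 family had sites in 4 or more tables in 4 of the 9 genes, Ago2, Tnrc6a, Tnrc6b and Tnrc6c, more than any other of the 29 families looked up. This was so for 2.05% of 10780 genes, and for 10.8% of the 295 genes with 100 or more clusters, a group that holds 5 of the 9. The Ago2 site in coding exon 8 was listed with 139, 130, 137, 36 and 25 reads, so all 5 libraries had it. The Tnrc6a 8mer was listed with 137, 122, 323, 9 and 22 reads, the Tnrc6b 8mer with 62, 0, 6, 22 and 78, and the Tnrc6c 8mer with 7, 0, 110, 60 and 46. A site's reads are the highest listed for a member of the family, and members can differ. The Tnrc6a values are those of miR-30c-5p, and the other 4 members looked up were listed there with 0, 38, 15, 9 and 22. In Tnrc6b the adult value was 78 for miR-30c-5p and 51 for the others. Embryonic values sum both lists. At the Ago2 site the cluster had 0, 0 and 132 embryonic reads in the first list and 139, 130 and 5 in the second, so neither list alone had all 3 above the 36 at P7. The family took 1.41% of miRNA reads at e12.5, 8.29% at P7 and 2.20% in adult liver.

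**Figure D5:**
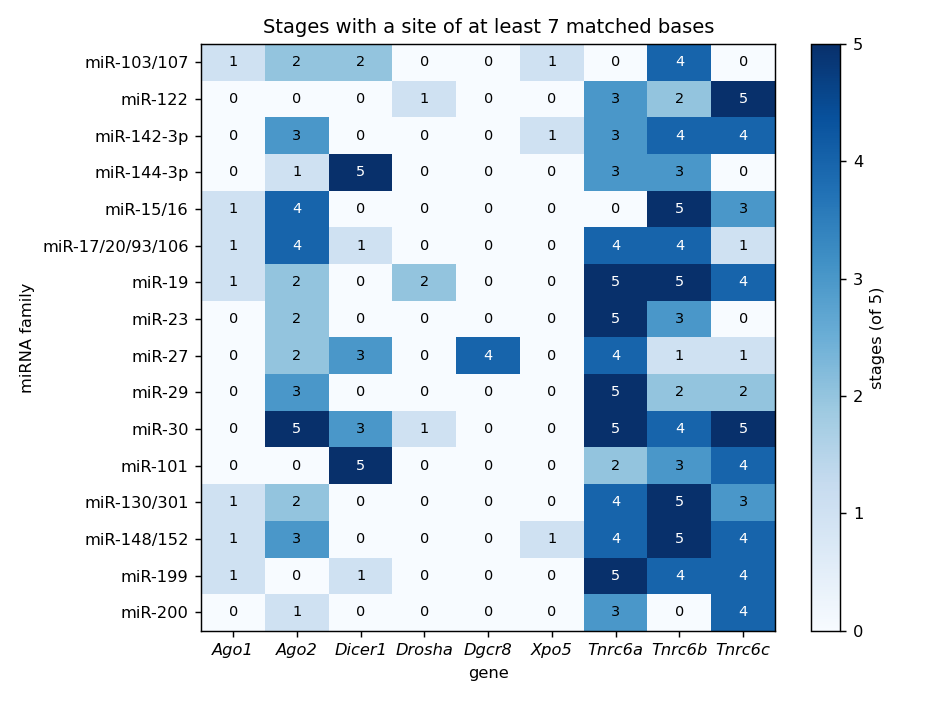
Number of stages, of 5, at which a gene (x axis) had a site of at least 7 matched bases for a miRNA family (y axis), for the 16 families with at least 4 stages in 1 or more genes. The Tnrc6 columns are the fullest, and the miR-30 row reaches 4 or 5 in 4 genes. The miR-199 row joins both arms of its hairpin, which have different seeds.

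miR-122, the most abundant miRNA of P7 liver here, had a site in all 5 tables in Tnrc6c, a 7mer-A1 in coding exon 6 at chr11:117732199-117732205, with 43, 58, 118, 149 and 16 reads. Its Tnrc6b site was listed only at P7 and in adult liver, with 27 and 66 reads, and its Tnrc6a site also at e12.5. The let-7 family, at 22.4% of miRNA reads in adult liver, had no site in 4 or more tables in any of the 9 genes, and had one in 1.61% of 10780 genes. Its Dicer1 8mer in the CDS (chr12:104702805-104702811) was listed at P7 with 24 reads and in adult liver with 9, and at no embryonic stage. An Ago2 8mer of let-7 in the 3′UTR (chr15:73097983-73097989) was listed with 89, 40, 0, 0 and 0 reads. Of the 9 genes, 5, 1, 0, 3 and 2 had a let-7 site of at least 7 matched bases, as had 5.21%, 3.14%, 3.27%, 7.73% and 7.27% of all 10780 genes. These Dicer1, Ago2, Tnrc6a and Tnrc6b sites were chosen after their values were seen.

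The other genes of the pathway, 38 in 4 lists, were looked up in the same way. Of the 34 tested in adult against e12.5 liver, 19 were at least 2-fold lower relative to the median gene (31.3% of all tested genes) and 2 were higher (32.5%), with a median of -1.22 on the log2 scale. Of 18 genes of deadenylation, decapping and decay 13 were lower, and of 8 of nuclear processing and export 5 were. Of 5 tested genes of the Argonaute and loading list, 1 was lower and 1 higher. Of 3 tested genes of let-7 precursor control, 0 were lower and 1 was higher, and the median was 0.80 relative to the median gene. Of the same list, Lin28a, Lin28b and Trim71, which act on let-7 precursors or are let-7 targets, had 110, 476 and 1085 reads at e12.5 and no entry in adult liver. These 3 were chosen after their values were seen.

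The named genes of these lists had the most scaled 3′UTR reads. Relative to the median gene, Ddx5, a helicase of the Drosha complex, was lower in adult liver by a log2 change of -3.04 and Ddx17, its paralog, by -0.68. The deadenylase subunits Cnot6 and Cnot6l were at -1.49 and -1.26, and the decapping genes Ddx6 and Dcp2 at -1.30 and -1.18.

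For each of the 8 genes with reads in all 5 libraries, the gene of most similar pattern was looked up among 6534 genes, by the largest difference of centred log2 reads over the 5 libraries. The nearest gene to Ago2 was Fancd2, with a largest difference of 0.15, to Dicer1 Cd82 (0.16), to Tnrc6a Slc25a51 (0.13), to Tnrc6b Mtmr12 (0.14), to Tnrc6c Myh9 (0.16), to Ago1 Cap1 (0.16), to Xpo5 Rpl4 (0.13) and to Dgcr8 Ncbp1 (0.09). With 5 values per gene such matches are a description.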

How the data were processed

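Ago HITS-CLIP tables of 5 mouse liver stages were used, 1 per stage. The authors trimmed reads with the FASTX-Toolkit, mapped them with Bowtie to mm10 and miRBase precursors, grouped overlapping reads into clusters, annotated them and scanned them for seed matches. The submitters' processing notes name mm9 as well; 2324 of 2324 deposited target fragments of the 9 genes lay at their listed mm10 position. The deposited read column is a signal, the highest read number of a cluster, not scaled, with a minimum of 5. The deposited conservation and free energy columns are scores and were not tested. Embryonic tables hold 2 lists, which were joined where clusters overlapped by 1 base on the same strand. They were not taken as replicates. The study describes 2 biological replicates with Ago2 antibodies, whereas each stage is 1 labelled sample.

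A cluster's reads were the highest value of its sites, and a gene's reads the sum over its 3′UTR, CDS and 5′UTR clusters, for every 1000000 cluster reads of the table. Reads of a site were the highest value among the miRNAs of its family, summed over lists. Reads of a site or position were not scaled to depth unless stated. The number in each entry's name was taken as the miRNA's read count, which the tables do not explain. Tested genes had at least 5 mRNA clusters over the tables and reads in both tables compared. Exons and lengths came from GENCODE (GRCm38) and miRNA sequences from RefSeq. The members and lists were chosen with earlier results of these data known. All 9 members were named, up to 6 other pathway genes with the most 3′UTR reads, each member's highest cluster, and up to 20 recurring sites. Code in Python 3.11.15 with numpy 2.4.6, pandas 2.3.3 and scipy 1.17.1 was tested on simulated data. Alternatives are given in the closing section.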

Additional observations from a re-analysis of the deposited data

How the results depend on the processing

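The log2 change of the summed scaled reads of the 9 genes from e12.5 to adult liver was -2.51. It was -1.72 scaled to mRNA cluster reads, -2.20 scaled to the study's total reads, -3.09 with the first and -2.10 with the second embryonic list, -1.42 without clusters on miRNA genes and -2.45 with sites of the 100 most abundant miRNAs. Of the 9 genes 2-fold lower, 5 remained past the threshold scaled to mRNA cluster reads and 3 without miRNA genes. The 1157 clusters became 644 with the first list and 546 with the 100 miRNAs. The number at least 2-fold lower relative to the median gene, 5, was 2 with the first list and 6 with sites of at least 7 bases. The share in the 3′UTR lay between 47.4% and 50.2% under the alternatives run, and 0 genes were 2-fold higher in scaled reads under each. Drosha was 2-fold higher relative to the median gene with the second list. Of 80 values of single genes, 78 kept their sign, and Drosha turned to 0.31 with the second list and 0.0100 without miRNA genes. Dgcr8 relative to the median gene was -1.91, 0.24 with the first list and -3.10 without miRNA genes. Tnrc6c relative to the median gene was -0.56, and 0.0059 with the first list. The causes were not tested. No paired analysis was possible because each stage has 1 library. Genes with few clusters, such as Ago1, Drosha and Xpo5, rest on at most 15 clusters a table, and entries under 5 reads are not listed.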
